A study of Arabidopsis thaliana with 19 samples.

Results

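The UBP genes of Arabidopsis thaliana encode ubiquitin-specific proteases, and 12 of them were followed across a series of ploidy levels. Members were chosen by name: a gene belonged to the group if its annotated symbol was UBP followed by a number and it had a probe set of its own on the array, with the probe set of the highest mean over 19 arrays taken where a gene had several. Each of the 12 genes had 1 probe set, so this mean, the 1 measured value in the rule, decided nothing about the choice. They were UBP15, UBP16 and UBP18 to UBP27, and they stood among 13356 genes with such a probe set. The reference gene table holds 27 UBP genes, and the other 15 (UBP1 to UBP14 and UBP17) were not analysed here. The family was picked as a unit with earlier results of these data known, so the counts over its members are descriptions.

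Ubiquitin is a small protein that cells attach to other proteins, singly or in chains, to send them to the proteasome or to alter what they do. Ubiquitin-specific proteases are cysteine proteases that remove it again, and in plants they are the largest family of deubiquitinating enzymes. Members of the Arabidopsis family are known for parts in organ growth, in the removal of ubiquitin from histone H2B, in abscisic acid responses and in the shape of mitochondria.

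RNA came from 19 single seedlings at an age of 2 weeks, grown on Murashige and Skoog medium, with 1 Affymetrix array for each. The diploids (2x) were 4 seedlings, and the maternal-excess triploids (3x(m)), paternal-excess triploids (3x(p)) and tetraploids (4x) were 5 each. The seedlings carried 2, 3, 3 and 4 genome copies in this order, and both kinds of triploid differ in which parent gave the larger share. Strain and crosses were not given in the sources used here, and whether seedlings of a group shared a parent plant was not given either, so the tests measure the spread between these seedlings.

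The deposited values are log2 expression values after RMA, and the median over all probe sets lay between 5.80 and 5.89 on every array. Because RMA brings the probes of all arrays to a common distribution, a value shows a transcript relative to the other transcripts of its seedling and not an amount per cell or per genome copy. In whole seedlings, fewer cells that use a gene and less RNA in each of them cannot be told apart. Levels of different probe sets were not set against each other, since each has its own brightness. Differences below are log2 differences ± SE from limma, a linear model fitted over all 22746 probe sets, and adjusted p-values are Benjamini-Hochberg values over all of them. A gene passed at an adjusted p under 0.05. The root markers EXPA7, EXPA18 and PYK10, 3 of 3 listed, were measured, with a summed level (log2) between 12.3 and 12.9 in every seedling. Such a sum follows its brightest probe set most, so differences of single root markers are given too. Of 6 markers of photosynthetic shoot tissue, 5 of dividing cells and 4 of seeds, 0 were among the named probe sets, so the shoot could not be checked. One seedling stood apart: in 3x(m) 4, genes of chromosome 4 were higher than in the other 18 seedlings, with a median difference of 0.136, and the results that rest on this seedling are also given without it.

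No UBP gene passed the test in any of 7 comparisons, which makes 0 calls among 84 pairs of gene and comparison. The means of all 12 genes lay above those of the dimmest 30% of probe sets, which had a mean below 4.07. No detection call was made. Means over the 19 seedlings ran from 4.8 for UBP19 to 8.32 for UBP23, as levels of their own probe sets. Within groups the SD lay between 0.106 and 0.239, with a median of 0.194, and the median over all probe sets was 0.176. The whole span over the 19 seedlings was 0.51 for the narrowest member, UBP16, and 1.06 for the widest, UBP23. No 2 group means of a member differed by more than 0.41.

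**Figure D1:**
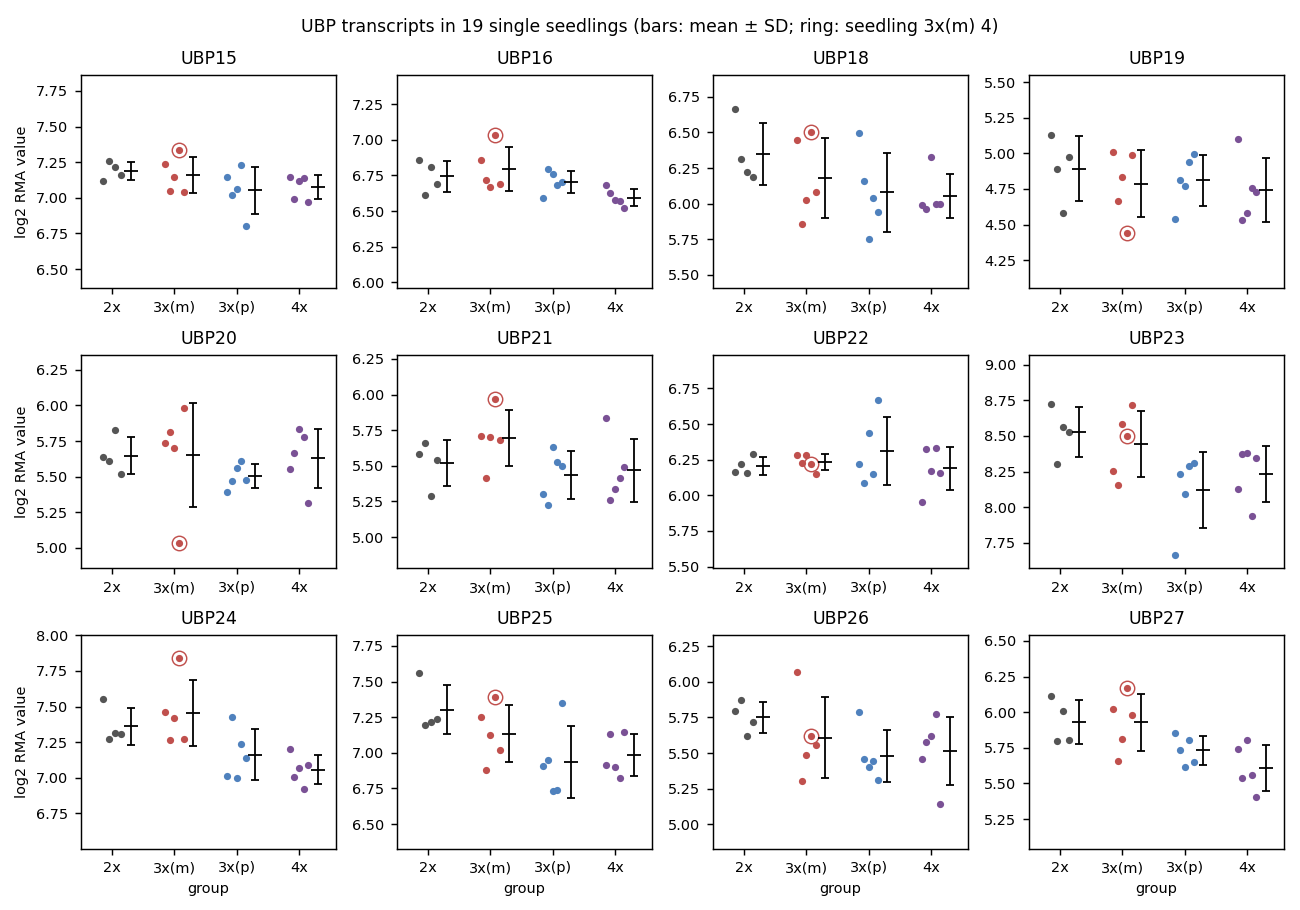
Each panel shows the log2 RMA value of 1 UBP gene in the 19 seedlings, by group in order of genome copies, with the group mean ± SD beside the points (n = 4 for 2x, n = 5 for the others) and a ring around seedling 3x(m) 4. The points of neighbouring groups overlap in every panel, and UBP24 and UBP25 in 4x lie below all 4 diploids.

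UBP15 (AT1G17110) promotes cell proliferation and organ size and is a target of the peptidase DA1. In order of genome copies its mean was 7.19 ± 0.063 in diploids, 7.16 ± 0.13 in maternal-excess triploids, 7.05 ± 0.16 in paternal-excess triploids and 7.07 ± 0.085 in tetraploids (SD, n = 4 and then n = 5 each). It was the second narrowest member in spread, with a within-group SD of 0.118, and differed by −0.11 ± 0.0861 between tetraploids and diploids (limma, adjusted p = 0.646).

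UBP16 (AT4G24560) has been linked to salt tolerance. Its values were 6.85, 6.61, 6.81 and 6.69 in the diploids and 6.86, 6.72, 6.67, 7.03 and 6.69 in the maternal-excess triploids. They were 6.59, 6.79, 6.76, 6.68 and 6.71 in the paternal-excess triploids and 6.68, 6.62, 6.58, 6.57 and 6.52 in the tetraploids. The tetraploids were a tight group at the low end, yet 4x 1 lay within the range of every other group. The largest of its differences was that of maternal-excess triploids minus tetraploids, 0.20 ± 0.0755 (limma, adjusted p = 0.444), and it was 0.14 without seedling 3x(m) 4.

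UBP18 (AT4G31670), for which no role is given here either, had 6.67, 6.32, 6.22 and 6.19 in the diploids and 6.44, 5.86, 6.03, 6.50 and 6.08 in the maternal-excess triploids. In the paternal-excess triploids it had 6.50, 6.16, 5.75, 6.04 and 5.94, and in the tetraploids 5.99, 5.96, 6.33, 6.0 and 6.0. Each group had 1 or 2 seedlings above the rest, and this gene had the highest within-group SD of the 12, 0.239. Tetraploids differed from diploids by −0.29 ± 0.152 (limma, adjusted p = 0.444), and by −0.19 without 2x 1. UBP19 (AT2G24640), which embryos need to develop, ranged over 4.53 to 5.10 in tetraploids and 4.58 to 5.13 in diploids. Its triploids ranged over 4.44 to 5.01 (maternal excess) and 4.54 to 4.99 (paternal excess), so that all 4 groups covered nearly the same span.

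The chromatin members are UBP22 (AT5G10790), the deubiquitinating enzyme of a histone H2B module, and UBP26 (AT3G49600), which also acts on H2B and takes part in gene silencing. UBP22 had 6.16, 6.22, 6.15 and 6.29 in the diploids and 6.28, 6.23, 6.29, 6.22 and 6.15 in the maternal-excess triploids. In the paternal-excess triploids it had 6.22, 6.09, 6.44, 6.15 and 6.67, and in the tetraploids 5.95, 6.33, 6.17, 6.33 and 6.16. Its groups overlapped throughout, and 3x(p) 5 was the highest of the 19 seedlings. Its largest difference was paternal-excess triploids minus tetraploids, 0.13 ± 0.0981 (limma, adjusted p = 1.00). Without 3x(p) 5 that difference was 0.036, and without 4x 1 it was 0.067.

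UBP26 had 5.79, 5.87, 5.62 and 5.72 in the diploids and 6.07, 5.31, 5.49, 5.62 and 5.56 in the maternal-excess triploids. In the paternal-excess triploids it had 5.79, 5.46, 5.40, 5.44 and 5.31, and in the tetraploids 5.46, 5.58, 5.62, 5.77 and 5.14. The diploids spanned little and sat near the top, but every other group reached into their range. Paternal-excess triploids differed from diploids by −0.27 ± 0.14 (limma, adjusted p = 0.466).

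UBP24 (AT4G30890) takes part in the response to abscisic acid, the hormone of drought and stomatal closure. Its values were 7.56, 7.27, 7.32 and 7.31 in the diploids, 7.46, 7.27, 7.42, 7.84 and 7.28 in the maternal-excess triploids and 7.01, 7.43, 7.0, 7.24 and 7.14 in the paternal-excess triploids. In the tetraploids they were 7.2, 7.0, 7.07, 6.92 and 7.09. Every tetraploid lay below every diploid and below every maternal-excess triploid, while the paternal-excess triploids overlapped all 3 other groups. Tetraploids differed from diploids by −0.30 ± 0.114, a fold of 0.81 with a 95% interval of −0.54 to −0.066 on the log2 scale before any adjustment for the number of genes (limma, adjusted p = 0.241). Maternal-excess triploids differed from tetraploids by 0.40 ± 0.107, a fold of 1.32 (adjusted p = 0.218), and by 0.30 without 3x(m) 4 (adjusted p = 0.284).

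UBP27 (AT4G39370) is tied to the mitochondrial outer membrane and to the shape of mitochondria. It had 6.11, 5.80, 6.01 and 5.80 in the diploids, 6.02, 5.65, 5.81, 6.17 and 5.98 in the maternal-excess triploids and 5.86, 5.73, 5.62, 5.80 and 5.65 in the paternal-excess triploids. In the tetraploids it had 5.74, 5.54, 5.80, 5.56 and 5.40. The highest tetraploid, 4x 3, reached the level of the lowest diploids, so these groups met at their edge. The difference of tetraploids minus diploids was −0.32 ± 0.107, a fold of 0.80 with an interval of −0.55 to −0.097 (limma, adjusted p = 0.175). It had the smallest adjusted p of any member in any comparison.

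No role is given here for UBP20 (AT4G17895), UBP21 (AT5G46740), UBP23 (AT5G57990) and UBP25 (AT3G14400). UBP23 had 8.73, 8.30, 8.56 and 8.52 in the diploids, 8.25, 8.16, 8.58, 8.5 and 8.72 in the maternal-excess triploids and 7.67, 8.23, 8.09, 8.29 and 8.31 in the paternal-excess triploids. In the tetraploids it had 8.13, 8.37, 8.38, 7.93 and 8.34. The paternal-excess triploids were lowest on average and met the diploids only at 8.31 against 8.30. Their difference from the diploids, −0.41 ± 0.143, was the widest of any member in any comparison, a fold of 0.75 with an interval of −0.71 to −0.11 (limma, adjusted p = 0.217). Without 3x(p) 1 it was −0.30.

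UBP25 had 7.56, 7.2, 7.21 and 7.24 in the diploids and 7.25, 6.88, 7.13, 7.39 and 7.02 in the maternal-excess triploids. In the paternal-excess triploids it had 6.91, 6.95, 6.73, 6.74 and 7.35, and in the tetraploids 6.92, 7.13, 6.90, 6.82 and 7.15. All tetraploids lay below all diploids, and so did all paternal-excess triploids but 3x(p) 5. Paternal-excess triploids differed from diploids by −0.37 ± 0.129 (limma, adjusted p = 0.222). The difference was −0.47 without 3x(p) 5 (adjusted p = 0.0596) and −0.28 without 2x 1 (adjusted p = 0.599). Tetraploids differed from diploids by −0.32 ± 0.129 (adjusted p = 0.283), and by −0.23 without 2x 1, the highest of the 19 seedlings for this gene.

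UBP21 had 5.58, 5.66, 5.29 and 5.54 in the diploids and 5.71, 5.41, 5.70, 5.97 and 5.68 in the maternal-excess triploids. In the paternal-excess triploids it had 5.30, 5.23, 5.63, 5.53 and 5.50, and in the tetraploids 5.84, 5.26, 5.34, 5.41 and 5.49. The maternal-excess triploids had the highest mean, but 3x(m) 2 lay inside the range of each other group. Paternal-excess minus maternal-excess triploids gave −0.26 ± 0.118 (limma, adjusted p = 0.809), and −0.19 without 3x(m) 4. UBP20 ranged over 5.32 to 5.84 in tetraploids, 5.39 to 5.61 in paternal-excess triploids and 5.52 to 5.83 in diploids, whereas the maternal-excess triploids spread over 5.03 to 5.98.

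Tetraploids against diploids ask what a doubling of all genome copies does to these transcripts. All 12 members had a negative difference, between −0.32 for UBP27 and −0.018 for UBP20, with a median of −0.19. With each seedling left out in turn, 10 to 12 were negative (10 without 4x 1) and the median ran from −0.27 to −0.15. Over all 22746 probe sets 50.8% were negative and the median was −0.003. None of the 12 passed by limma, where 0.958% of all probe sets did, and the smallest adjusted p among them was 0.175. At an unadjusted p under 0.05, 3 of 12 were lower (UBP24, UBP25 and UBP27), against 7.04% of all probe sets. That count was 1 without 2x 1, and 5 without 2x 2, 3x(p) 1 or 4x 3. Groups that did not overlap were seen for 2 of 12, UBP24 and UBP25, both lower in tetraploids, against 3.93% of all probe sets. The 95% intervals of the 12 lay between −0.61 and 0.29. Beside these values, 3 of 3 root markers had positive differences, none of which passed: EXPA18 1.11, EXPA7 0.85 and PYK10 0.22. Their summed level (log2) was 12.5 to 12.9 in tetraploids and 12.4 to 12.5 in diploids. Of 3 measured handling-response markers, of 5 listed, 2 had positive differences and none passed, with a summed level of 6.21 to 7.05 in tetraploids and 5.54 to 5.87 in diploids. The part of these markers in the result was not tested.

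Maternal-excess triploids against diploids ask the same of 1 added maternal genome. Here 7 members had a negative and 5 a positive difference, with a median of −0.015, against −0.004 over all probe sets. UBP21 (0.18 ± 0.125), UBP25 (−0.17 ± 0.129) and UBP18 (−0.17 ± 0.152) had the smallest p-values, each with an adjusted p of 0.999 by limma. Leaving out 1 seedling moved all 3, in both directions. UBP18 was at −0.061 and UBP25 at −0.083 without 2x 1, and at −0.085 and −0.11 without 3x(m) 2. Without 3x(m) 4 UBP18 was at −0.25 and UBP25 at −0.23. UBP21 was at 0.10 without 2x 3, at 0.11 without 3x(m) 4 and at 0.25 without 3x(m) 2. No member passed where 0.0352% of all probe sets did, 0 of 12 had an unadjusted p under 0.05 (4.33% of all probe sets did), and the groups overlapped for every member (1.37% of all probe sets were apart). All 12 intervals lay between −0.49 and 0.44. With each seedling left out in turn, 6 to 9 members were negative (9 without 3x(m) 4) and the median ran from −0.046 to −0.006. The summed level (log2) of the handling-response markers was 5.98 to 8.20 in maternal-excess triploids and 5.54 to 5.87 in diploids, and their part was not tested.

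Paternal-excess triploids against diploids ask the same of 1 added paternal genome. The differences were negative for 11 of 12, UBP22 being the exception (0.11 ± 0.104), with a median of −0.17 against −0.004 over all probe sets, of which 50.9% were negative. UBP22 rested on 3x(p) 5, its highest seedling: it differed by 0.016 without that seedling and by 0.16 without 3x(p) 2. Without 2x 1, 10 members were negative. UBP23, UBP25 and UBP26 had the smallest p-values and are given above. No member passed by limma, against 1.15% of all probe sets, and 2 of 12 (UBP23 and UBP25) were lower at an unadjusted p under 0.05, against 6.83%. That count was 1 without 2x 1 and 4 without 3x(p) 1. The groups overlapped for every member, where 4.85% of all probe sets were apart, and the intervals lay between −0.71 and 0.32. The 3 comparisons above share the 4 diploid seedlings, so a high or low diploid enters all of them, and the comparisons that follow reuse the polyploid seedlings in the same way. Of the handling-response markers STZ passed in this comparison (1.94 ± 0.345, limma, adjusted p = 0.00757). The summed level (log2) of the 3 was 6.63 to 8.76 in paternal-excess triploids and 5.54 to 5.87 in diploids. All 3 root markers had positive differences, none of which passed: EXPA18 0.45, EXPA7 0.40 and PYK10 0.07. Their summed level was 12.4 to 12.6 in paternal-excess triploids and 12.4 to 12.5 in diploids. The part of these markers in the values of the UBP genes was not tested.

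**Figure D2:**
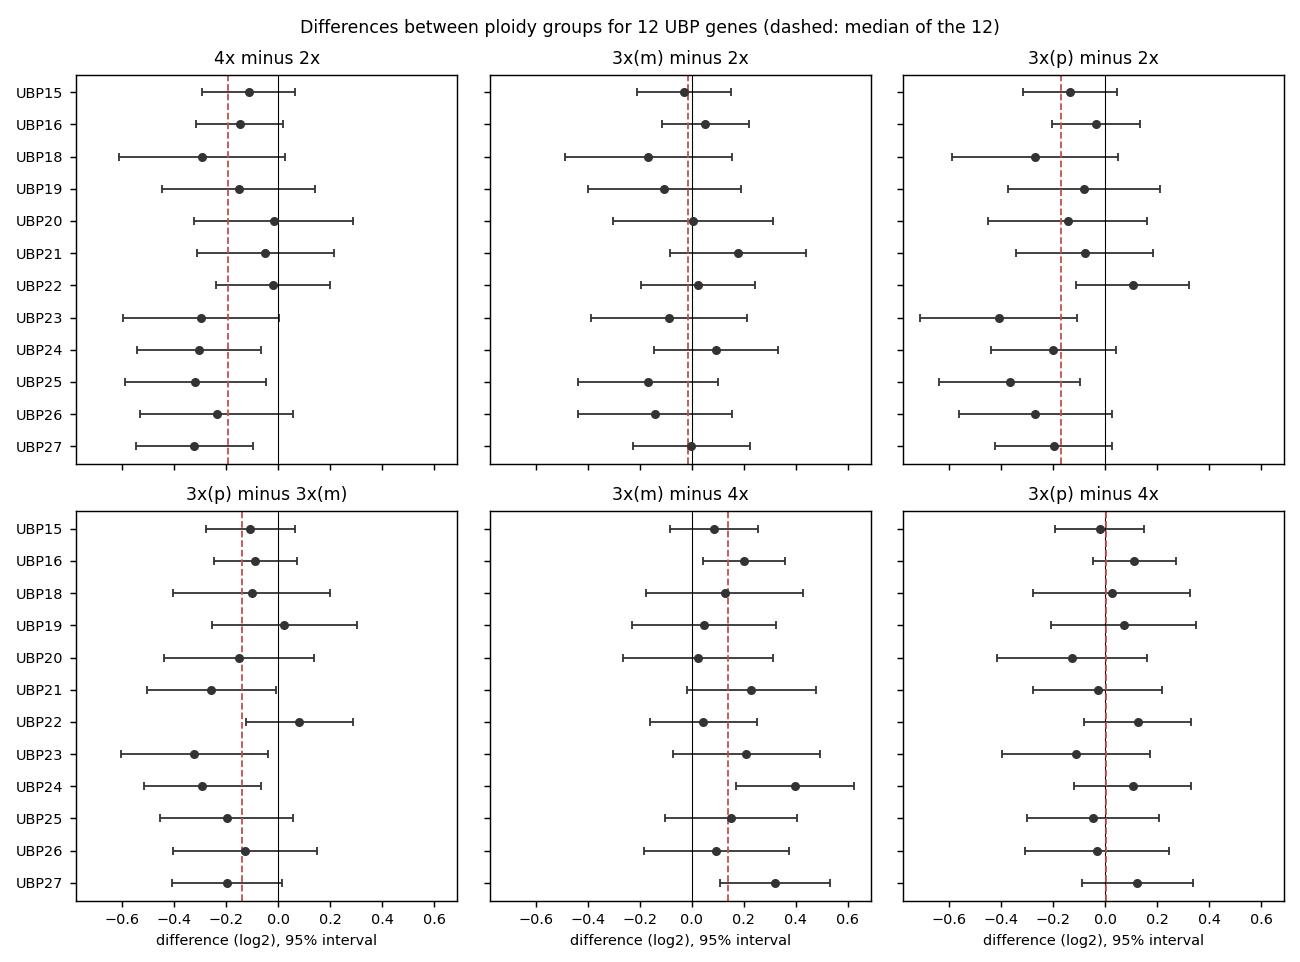
Points are log2 differences of the 12 UBP genes in the 6 comparisons between groups, first group minus second, with unadjusted 95% intervals from limma; the dashed line is the median of the 12. All points lie left of 0 for 4x minus 2x (median −0.19) and right of it for 3x(m) minus 4x (median 0.14), and for 3x(p) minus 4x they lie on both sides (median 0.0015).

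The reciprocal triploids share the number of genome copies and differ in the parent that gave the extra one. Paternal-excess minus maternal-excess differences were negative for 10 of 12, with a median of −0.14 against −0.002 over all probe sets, and UBP19 (0.024) and UBP22 (0.08) were the positive ones. UBP24 differed by −0.29 ± 0.107 (limma, adjusted p = 0.751) and UBP23 by −0.32 ± 0.135 (adjusted p = 0.783), which was −0.21 without 3x(p) 1. None passed, against 0.0044% of all probe sets, and 3 of 12 (UBP21, UBP23 and UBP24) were lower at an unadjusted p under 0.05, against 3.13%. This count was 1 without 3x(m) 3 or 3x(m) 5, and 4 without 3x(m) 2 or 3x(p) 5. With each seedling left out in turn, 10 to 12 were negative and the median ran from −0.20 to −0.11. Without 3x(m) 4 UBP24 differed by −0.19. The ranges of both kinds of triploid overlapped for every member, where 0.743% of all probe sets were apart, and the intervals lay between −0.61 and 0.30. UBP20 differed by −0.15 ± 0.138 with all seedlings and by −0.30 ± 0.0997 without 3x(m) 4 (adjusted p = 0.84), but by −0.069 without 3x(m) 5.

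Against the tetraploids, the maternal-excess triploids had positive differences in all 12 members, from 0.023 for UBP20 to 0.40 for UBP24, with a median of 0.14 against 0.004 over all probe sets. UBP24, UBP27 (0.32 ± 0.101, limma, adjusted p = 0.328) and UBP16 had the smallest p-values. None passed, against 0.0747% of all probe sets, while these 3 of 12 were higher at an unadjusted p under 0.05, against 4.14%. UBP24 was the 1 member whose groups were apart, higher in the triploids, against 0.769% of all probe sets, and the intervals of the 12 lay between −0.27 and 0.62. With each seedling left out in turn, 10 to 12 were positive. The count was 10 without 3x(m) 1 or 3x(m) 5, and the median was 0.094 without 3x(m) 1 and 0.21 without 3x(m) 2. Without 3x(m) 4 all 12 were positive, with UBP27 at 0.26, UBP20 at 0.18 and UBP16 at 0.14. Without 3x(m) 5 UBP20 was at −0.058. All 3 root markers had negative differences here, none of which passed: EXPA18 −1.21, EXPA7 −0.81 and PYK10 −0.15. Their summed level (log2) was 12.3 to 12.6 in maternal-excess triploids and 12.5 to 12.9 in tetraploids, and their part was not tested.

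Paternal-excess triploids against tetraploids set 3 genome copies, with the larger share from the father, against 4. Differences were positive for 6 and negative for 6 members, from −0.13 for UBP20 to 0.13 for UBP22, with a median of 0.0015. Over the seedlings left out in turn, 4 to 6 were negative and the median ran from −0.004 to 0.042. None passed by limma, against 0.022% of all probe sets, the adjusted p was 1.00 for each member, and 0 of 12 had an unadjusted p under 0.05, against 4.86%. The groups overlapped for every member, where 0.901% of all probe sets were apart. UBP16 (0.11 ± 0.0755) and UBP27 (0.12 ± 0.101) were next to UBP22 in the order of p, and UBP27 was at 0.073 without 4x 5. All 3 root markers had negative differences, none of which passed: EXPA18 −0.66, EXPA7 −0.45 and PYK10 −0.16. Their summed level (log2) was 12.4 to 12.6 in paternal-excess triploids and 12.5 to 12.9 in tetraploids, and their part was not tested. The intervals lay between −0.42 and 0.35.

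A slope on the number of genome copies, with both triploids at 3, was negative for all 12 members. Because 3 is the middle of this scale, the slope rests mostly on the diploids and tetraploids already compared above. It ran from −0.16 for UBP27 to −0.0055 for UBP20 per genome copy, with a median of −0.096 against −0.002 over all probe sets. UBP27 had −0.16 ± 0.0566 (limma, adjusted p = 0.208), UBP24 −0.16 ± 0.0658 (adjusted p = 0.318) and UBP25 −0.15 ± 0.0676 (adjusted p = 0.355). None passed, against 0.484% of all probe sets, and these 3 had an unadjusted p under 0.05, against 6.77% lower among all probe sets. The count was 1 without 2x 1, and 4 without 2x 2, 3x(m) 4, 3x(p) 1 or 3x(p) 3. With each seedling left out in turn, 10 to 12 slopes were negative (10 without 4x 1). Beside them, 3 of 3 root markers had a positive slope, EXPA18 of 0.58 (limma, adjusted p = 0.23) and PYK10 of 0.11 (adjusted p = 0.249), as had 2 of 3 handling-response markers, with WRKY53 at 0.65 (adjusted p = 0.387). None of these passed, and their part in the slopes of the UBP genes was not tested. By group means, the diploids were highest for 7 members, the maternal-excess triploids for 4 and the paternal-excess triploids for 1. The lowest mean was that of the tetraploids for 6 members and that of the paternal-excess triploids for the other 6. No step between neighbouring groups in these orders passed the test.

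Taken seedling by seedling, the mean deviation of the 12 members from their own means was 0.227 in 2x 1, and 0.069, 0.054 and 0.064 in the other diploids. In the maternal-excess triploids it was 0.18, −0.098, 0.051, 0.157 and 0.081, and in the paternal-excess triploids −0.105, −0.067, −0.113, −0.041 and −0.027. In the tetraploids it was −0.04, −0.099, −0.038, −0.099 and −0.155. The diploids were all above 0 and the paternal-excess triploids and tetraploids all below it, while the maternal-excess triploids lay on both sides. These signs largely restate the group differences above, since they come from the same values. In 2x 1 and in 3x(m) 1, 11 of 12 members lay above their own mean, and in 3x(m) 4 9 of 12. Seedling 2x 1 gave the highest of the 19 values for 4 members (UBP18, UBP19, UBP23 and UBP25), and 4x 5 the lowest for 3 (UBP16, UBP26 and UBP27). These means and counts were not taken over all probe sets, so whether they are particular to the UBP genes was not tested.

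**Figure D3:**
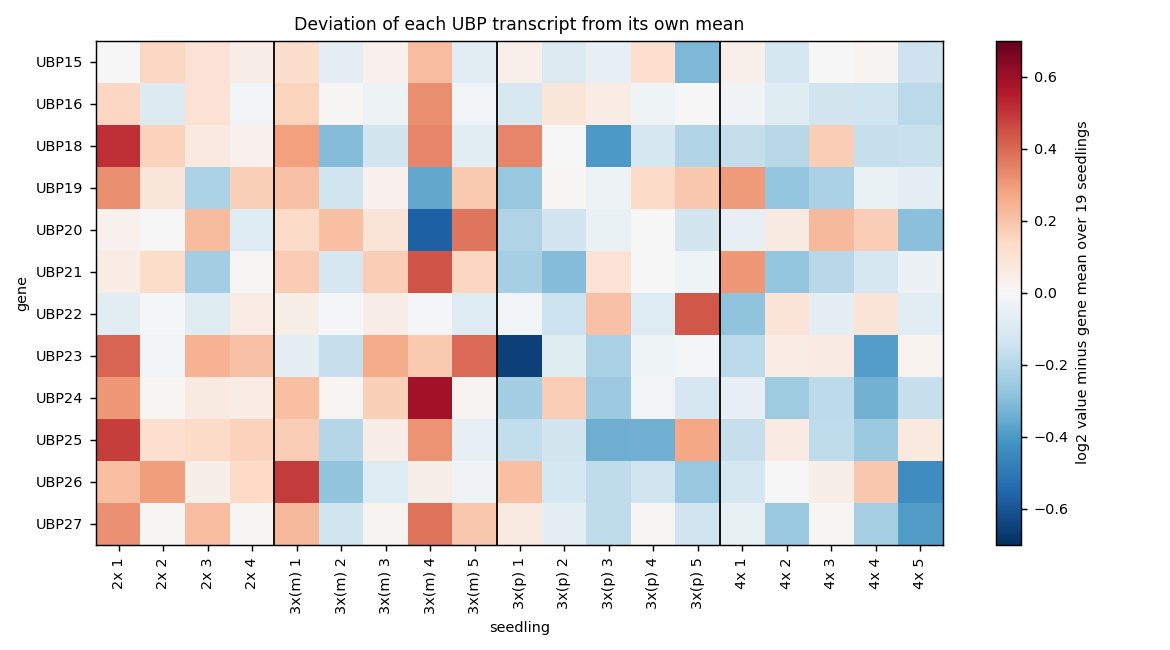
Colour gives the log2 value of each UBP gene (rows) in each seedling (columns, by group in order of genome copies) minus the gene's mean over the 19 seedlings. Mean deviations are highest in 2x 1 (0.227), 3x(m) 1 (0.18) and 3x(m) 4 (0.157) and lowest in 4x 5 (−0.155), and in 3x(m) 4 UBP24 is high at 7.84 while UBP20 is low at 5.03.

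Chromosome 4 carries 5 of the 12 members, and seedling 3x(m) 4 has higher transcript levels along that chromosome. Relative to the mean of the other 18 seedlings, the median over 1935 genes of chromosome 4 was 0.136 in this seedling, and it lay between −0.014 and −0.005 on the other 4 chromosomes. UBP24 was 0.62 above the mean of the other 18 seedlings, UBP27 0.40, UBP18 0.36 and UBP16 0.34. For UBP16, UBP24 and UBP27 this seedling was the highest of the 19, and for UBP18 the second highest. UBP20 is on chromosome 4 too but was lowest of the 19 there, at 5.03 against 5.70 to 5.98 in the other maternal-excess triploids, a difference of −0.61 from the other 18 seedlings. Among the 20 genes nearest to UBP20, 15 were higher in this seedling and the median difference was 0.249, unlike UBP20 itself. Around UBP24, UBP27, UBP16 and UBP18 the median of the 20 neighbours was 0.277, 0.254, 0.184 and 0.101. Of these neighbours 17, 17, 16 and 10 were higher in this seedling.

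High values in 3x(m) 4 were not limited to chromosome 4. UBP21 on chromosome 5 (0.47 above the other 18 seedlings) and UBP15 on chromosome 1 (0.23) were also at their highest of the 19 in this seedling, with neighbours at medians of 0.087 and −0.134. UBP25 on chromosome 3 was 0.33 above and second highest, with neighbours at −0.075. UBP19 on chromosome 2 was at its lowest of the 19 there, 0.38 below the other 18 seedlings (−0.38), with neighbours at −0.024. This seedling thus gave the highest value of 5 members and the lowest of 2. The same counts over all probe sets were not made, so they are not read as a trait of the UBP genes.

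**Figure D4:**
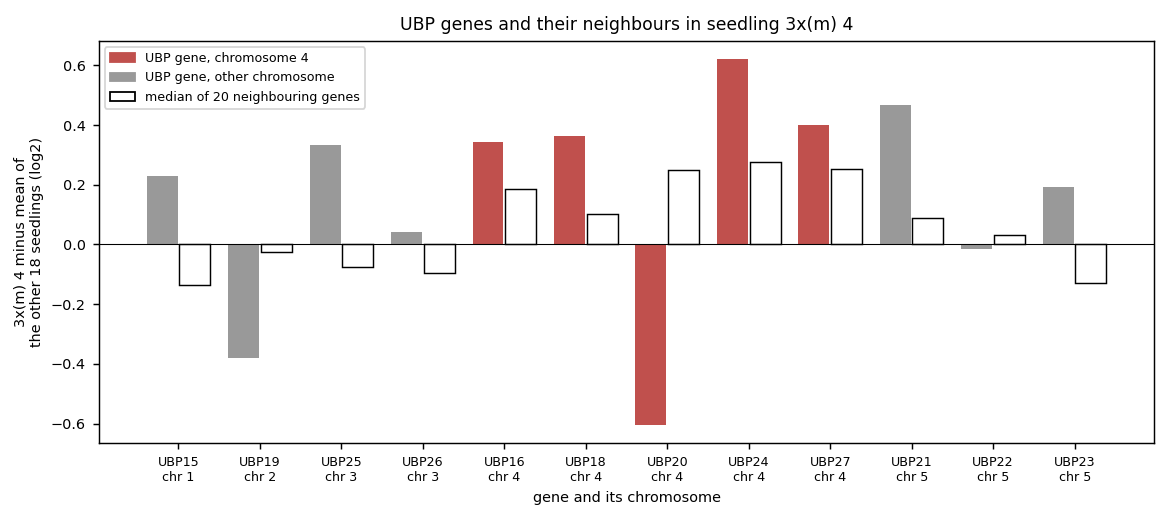
Filled bars give, for each UBP gene, the log2 value in seedling 3x(m) 4 minus the mean of the other 18 seedlings, red for genes on chromosome 4 and grey for the others; open bars give the median of the same difference over the 20 nearest genes. On chromosome 4 UBP16, UBP18, UBP24 and UBP27 and the medians of their neighbours are above 0, while UBP20 is at −0.61 among neighbours at a median of 0.249.

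Over the 66 pairs of members the correlation of deviations from group means over the 19 seedlings had a median of 0.084, and 42 of the 66 were positive, as a description of points that share arrays and groups. The closest pairs were UBP18 with UBP27 (r = 0.77) and UBP16 with UBP24 (r = 0.75), all 4 of them on chromosome 4. Without 3x(m) 4 these were 0.73 and 0.57. UBP18 with UBP26, on chromosomes 4 and 3, reached 0.63, and 0.67 without that seedling. UBP20 stood opposite to UBP24 (r = −0.62), and at −0.23 without 3x(m) 4. UBP19 and UBP21 had r = 0.45, and 0.79 without that seedling, in which UBP19 was lowest and UBP21 highest of the 19.

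Other genes of ubiquitin removal and of the pathways of the UBP proteins were mostly not among the named probe sets. Of 15 listed genes from other deubiquitinase families, 4 were measured, and none passed in any comparison. In tetraploids minus diploids CSN5B, of the COP9 signalosome, differed by −0.31 (limma, adjusted p = 0.207), AT1G28120 by 0.15 and AT5G23540 by 0.14, and 3 of the 4 differences were positive. The median of the 4 was 0.14 in that comparison, where the 12 UBP genes had −0.19. Of the 10 genes in a separate proteasome list RPN12a alone was measured (0.16, limma, adjusted p = 0.52), and of 11 ubiquitin and ubiquitin-activating genes 0 were. Both measured genes of 7 in the H2B list, AT3G27100 and AT5G58575, were at 0.05 and −0.07 in tetraploids minus diploids. AT5G58575 differed by −0.21 in maternal-excess triploids minus diploids (adjusted p = 0.965) and by −0.18 in paternal-excess triploids minus diploids (adjusted p = 0.277). UBP15 and UBP14 act in the DA1 pathway, of which 10 genes were listed. In tetraploids minus diploids AT4G36860 differed by 0.14 and TCP15, a growth transcription factor, by 0.30 (limma, adjusted p = 0.712). GI, a clock protein that works with UBP12 and UBP13, was the 1 measured gene of 5 in its list. It differed by −0.36 in tetraploids minus diploids (limma, adjusted p = 0.232), and by 0.38 in maternal-excess triploids minus tetraploids (adjusted p = 0.345). None of these genes passed in any of the 7 comparisons.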

How the data were processed

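Values were the deposited log2 expression values of 19 Affymetrix arrays, made by the authors with RMA per the submitters' processing notes; the version of RMA and a genome build were not given in the sources used here. Of the 22810 probe sets, 64 are array controls and were left out. The platform annotation names 1 gene for 13513 of them, with symbols updated through the TAIR10.1 gene table for 13436, which also gave chromosomes and neighbours. The linear model used limma 3.58.1 (R 4.3.3) and all 19 seedlings, with a mean for each of the 4 groups, or an intercept and a slope on genome copies, empirical Bayes moderation and Benjamini-Hochberg adjustment. No batch is given in the labels. The members and lists were chosen with earlier results of these data known. Values per seedling are printed for the 3 members with the smallest p in each comparison, and the values of UBP15, UBP19 and UBP20 as summaries; genes of other lists were named by the smallest p, at most 3 for each comparison. Neighbours were the 10 nearest genes with a probe set of their own on each side. The fits were tested on simulated data. Alternatives were the compared groups alone (or 1 kind of triploid for the slope), eBayes with trend and robust, no dim probe sets, further quantile normalization, array weights, a replicate block, 1 probe set per gene, averaging over the probe sets of each gene and each seedling left out. Arrays limit the precision by their number. Sequences are not reported here. Figures used matplotlib 3.10.9 in Python 3.11.15.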

Additional observations from a re-analysis of the deposited data

Results flagged for a closer look

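In 3 of 48 pairs of gene and group a seedling stood far from the others of its group, where chance gives about 1 in 20, or 2.4. UBP18 in 4x 3 was at 6.33 against 5.96 to 6.0 in the other tetraploids, a gap of 0.905 of the group's range. In 2x 1 UBP25 was at 7.56 against 7.2 to 7.24 in the other diploids (0.881), and UBP24 at 7.56 against 7.27 to 7.32 (0.83).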

How the results depend on the processing

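The count of members passing was 0 in the 7 comparisons and stayed 0 under the 27 alternatives run for each comparison of groups and the 28 run for the slope. The smallest adjusted p under any of them was 0.0596, for UBP25 in paternal-excess triploids minus diploids without 3x(p) 5. With array weights UBP24 reached 0.0728 in tetraploids minus diploids. With the replicate block 0 members passed as well. The numbers were treated as names. Same-numbered seedlings correlated from −0.375 to 0.435, with a median of 0.038 and above 0.1 in 12 of 27 pairs. Differently numbered ones correlated from −0.51 to 0.451, with a median of −0.004 and above 0.1 in 32 of 108 pairs. For 6 of 19 seedlings the closest seedling of another group had the same number. The 21 differences that had the 3 smallest p-values within each comparison kept their sign throughout. Of the 63 others 25 changed sign under some alternative, none of them larger than 0.113 in size. In tetraploids minus diploids 5 members had an unadjusted p under 0.05 with these groups alone. In paternal-excess minus maternal-excess triploids that count was 1 with array weights, and for the slope it was 5 without the paternal-excess triploids. Each member had 1 probe set, so averaging over probe sets left its values as they were. The small number of seedlings limits the precision.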
